A study of Mus musculus with 73 samples.

Results

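The lower end of the villus core and the stroma around the crypts of the mouse jejunum were compared after laser capture microdissection (LCM), in which a laser cuts a chosen area from a frozen tissue section. The members were taken by their labels: every LCM library labelled villus bottom, 8 sections from 5 mice, and every LCM library labelled crypt, 6 sections from 3 mice. These 14 libraries are part of 29 LCM libraries and of 73 samples in the series. The LCM mice were C57BL/6 males on regular chow, labelled as 3 months old, with no transgene and no ablation. Epithelium is given for comparison from 4 mock mice, males carrying Lgr5(GFP-ires-DTR/+) and labelled as 4 months old. They were collected 48 h after an injection of saline in place of diphtheria toxin. These samples also set which highly expressed epithelial genes were removed. Sections of a mouse were averaged within a zone, so the mouse was the replicate, and mice 1, 2 and 3 gave both zones. The libraries were made from polyA RNA with SMART-seq v4, a full-length protocol for small amounts of RNA. Each library is RNA of a mixed tissue piece and not of a sorted cell type. A lower level can therefore mean fewer cells of a type or less RNA per cell, which cannot be told apart here.

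The core of the villus is the lamina propria, a loose connective tissue with fibroblasts, smooth muscle strands, blood and lymph vessels and many immune cells. Plasma cells of the lamina propria secrete dimeric immunoglobulin A, which is held together by the joining chain and is carried across the epithelium into the lumen. The crypts, where stem cells divide and Paneth cells release alpha-defensins, are wrapped by fibroblasts that secrete Wnt agonists and antagonists of bone morphogenetic proteins (BMP).

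Values in ppm are parts in 1000000 of the TPM (transcript abundance per length and library) that remained after genes highly expressed in epithelium had been removed. They were scaled to the genes that each took less than 1% of a library. Differences are villus bottom minus crypt, on log2(ppm + 1). Of 20882 genes listed, 13537 had a mean above 5 ppm in at least 1 of the 4 LCM zones and were tested. None reached an adjusted p under 0.05 in limma with Benjamini-Hochberg adjustment (0% called), and the smallest adjusted p was 1. At an unadjusted limma p under 0.05 there were 205 genes (1.51%), 98 of them higher (0.724%) and 107 lower (0.79%) at the villus bottom, and there were 370 when the mouse was a block in the fit. No overlap between the 5 villus bottom mice and the 3 crypt mice was seen for 163 genes higher at the villus bottom (1.2%) and for 159 genes lower there (1.17%). Random labels would separate a gene without ties in a given direction in 1 of 56 splits, a share of 0.0179. Both shares lay below that, and the 1.51% lay below the 0.05 of its threshold. These counts therefore do not show by themselves that the zones differed. All single-gene statements below are thus about levels in these mice and not about calls, and each gene named had a limma adjusted p of 1. For some single genes a two-sided exact permutation test over the 8 mouse values is given, whose smallest possible p is 0.0179 with 56 splits. No such p is given for genes described because their mice did not overlap, since that choice sets it at or near its minimum.

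The mesenchymal markers *Pdgfra*, *Col1a1*, *Col3a1*, *Dcn*, *Lum* and *Vim*, the endothelial marker *Pecam1* and the pan-leukocyte marker *Ptprc* were above 0 in all 8 mouse values. Most were low: *Pdgfra* ranged from 1.72 to 21.0 TPM, *Col1a1* from 6.87 to 34.7 and *Dcn* from 1.66 to 210. *Pecam1* ranged from 542 to 1910 TPM. Epithelial RNA was also present: *Vil1*, encoding the microvillus protein villin, ranged from 36.3 to 407 TPM. Other epithelial genes were far above the mesenchymal markers, with *Fabp1* from 2251.5 to 15022 TPM and *Reg3b* from 680 to 22357 TPM. The genes removed were those highest in mock epithelium and not those of enterocytes alone. Among them were 4 alpha-defensins, 2 other Paneth cell genes, 5 goblet cell genes and 3 macrophage and dendritic cell genes of the lists below. The removed genes took 32.2%, 9.93% and 23.7% of TPM in the 3 crypt mice. In the 5 villus bottom mice they took 30.2%, 13.4%, 23.5%, 18.3% and 16.6%. The 2 zones did not differ in this summed share beyond the spread between mice (exact permutation p = 0.786). A similar sum does not show that epithelial RNA was alike, since single epithelial genes ran opposite ways. Mean TPM in crypt and villus bottom was 19419 and 5068 for the alpha-defensin *Defa24*, and 4460 and 11039 for *Fabp1*. Across genes, sections of the same mouse and zone correlated with a median Pearson r of 0.682 over 6 pairs. Mouse means of the same zone correlated with a median of 0.653 and those of different zones with 0.663, so zone was not the main axis of variation across genes.

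Transcripts of immunoglobulins were abundant in both zones and took a larger part of the RNA at the villus bottom. Summed over all immunoglobulin genes, they made up 1.29%, 3.5% and 2.80% of TPM in crypt mice 1, 2 and 3. At the villus bottom they made up 7.27%, 16.6%, 14.9%, 13.1% and 12.3% in mice 1 to 5. Every villus bottom mouse was above every crypt mouse. Of this sum in ppm, *Igkc* and *Igha* together carried between 83.2% and 98.4% in each mouse and zone.

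*Igkc*, the constant region of the kappa light chain (chr6:70726435-70726966, plus strand, GRCm38), stood at 13907, 39081 and 35034 ppm in crypt mice 1, 2 and 3. At the villus bottom it stood at 73089, 245210, 185220, 154590 and 143090 ppm in mice 1 to 5. All mice with both zones had more at the villus bottom, and the zones did not overlap. Means were 29341 ± 13518 ppm (SD, n = 3) in crypt and 160240 ± 62779 ppm (SD, n = 5) at the villus bottom. The log2 difference was 2.48 ± 1.40 (SE). *Igha*, the constant region of the alpha heavy chain that defines IgA (chr12:113254830-113260236, minus strand), was at 7524, 17193 and 18762 ppm in crypt and at 44661, 128880, 81569, 72882 and 86277 ppm at the villus bottom. Here too the lowest villus bottom mouse lay above the highest crypt mouse, with a log2 difference of 2.54 ± 2.02 (SE).

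*Iglc2*, a lambda light chain constant region, was at 200.4, 199.8 and 599 ppm in crypt and at 1532, 7021, 2410, 2816 and 1406 ppm at the villus bottom. Its reads can be shared with the near-identical other lambda constant regions, so the value is that of the group as the authors' counting split it. *Jchain*, the joining chain of dimeric IgA and pentameric IgM (chr5:88519809-88527891, minus strand), was at 1436, 3820 and 4136 ppm in crypt and at 10453, 26494, 15444, 27930 and 18847 ppm at the villus bottom. *Jchain* thus had the same direction as *Igkc* and *Igha*, without overlap between zones, with a log2 difference of 2.72 ± 1.30 (SE). The limma fit took its spread from all 4 zones and gave an unadjusted p of 0.0902 for *Igkc*, 0.2205 for *Igha* and 0.0470 for *Jchain*. With crypt and villus bottom alone, the unadjusted limma p was 0.00815, 0.00354 and 0.00118, while the adjusted p stayed at 1. These genes are described because their mice did not overlap, so their small p-values follow in part from that choice.

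The isotypes were far apart in level. *Ighm*, the heavy chain of IgM, ranged from 10.2 to 34.6 ppm in crypt and from 10.4 to 117 ppm at the villus bottom, with overlap. *Ighg2b*, an IgG heavy chain, was at 38.1, 0.918 and 43.2 ppm in crypt and at 155, 292, 235, 22.1 and 610.2 ppm at the villus bottom, where mouse 4 lay within the crypt range (log2 difference 3.53). In every mouse and zone *Igha* exceeded both of them by more than an order of magnitude.

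Further up the villus, *Igkc* had a median of 29350 ppm at the villus center and 9742 ppm at the villus top over 5 mice each, against 154600 ppm at the villus bottom and 35030 ppm in crypt. *Jchain* ran the same way, with medians of 3820 ppm in crypt, 18850 ppm at the bottom, 3137 ppm at the center and 1062 ppm at the top. The spread between mice at the center was wide, from 949 to 320500 ppm for *Igkc*, and mouse 5 was higher at the center than at the bottom.

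**Figure D1:**
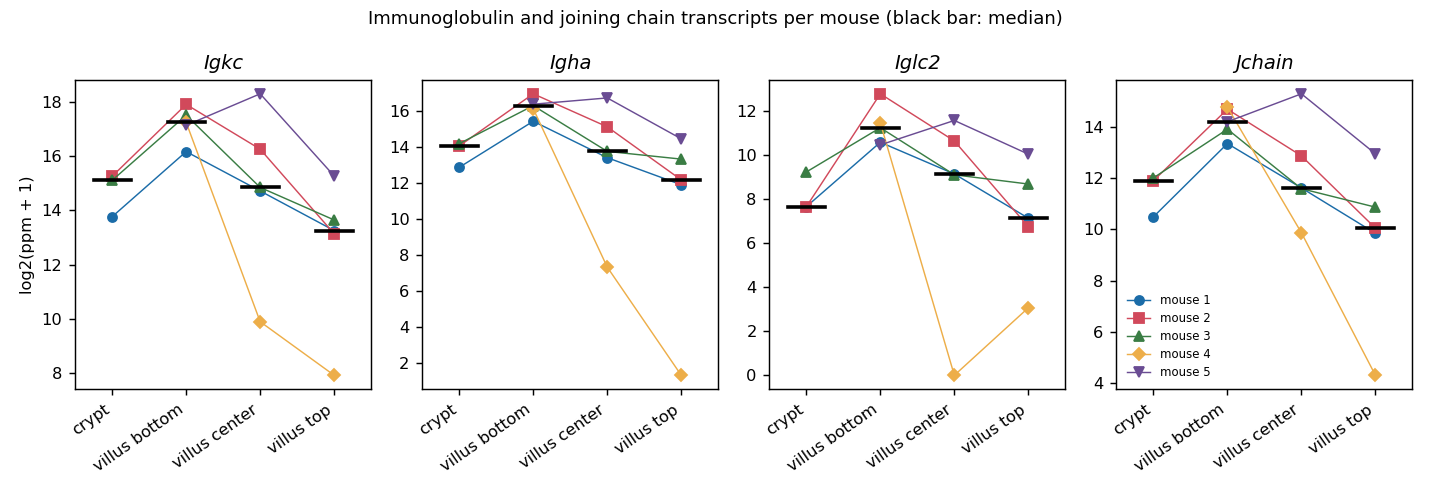
Levels of *Igkc*, *Igha*, *Iglc2* and *Jchain* as log2(ppm + 1) on the y axis in the 4 LCM zones on the x axis; each marker and line is 1 mouse and the black bars are medians over mice. The 5 villus bottom mice lie above the 3 crypt mice in all panels, for *Jchain* from 10453 to 27930 ppm against 1436 to 4136 ppm.

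Within a mouse, sections differed strongly. In villus bottom mouse 1, section 1 had 131370 ppm of *Igkc* and section 2 had 14812 ppm, and in mouse 2 the sections had 90595 and 399820 ppm. Of the 8 villus bottom sections, 7 lay above all 6 crypt sections for each of *Igkc*, *Igha*, *Iglc2* and *Jchain*, and section 2 of mouse 1 lay within the crypt range. Leaving out section 1 of that mouse gave the smallest *Igkc* difference (log2 2.02), and leaving out section 2 gave the largest (2.65). Scaling without the immunoglobulin genes and *Jchain*, an alternative chosen after seeing the data, gave a log2 difference of 2.51 for *Igkc*. The main scaling already left genes at 1% or more of a library out of the sum, so this alternative could change little.

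**Figure D2:**
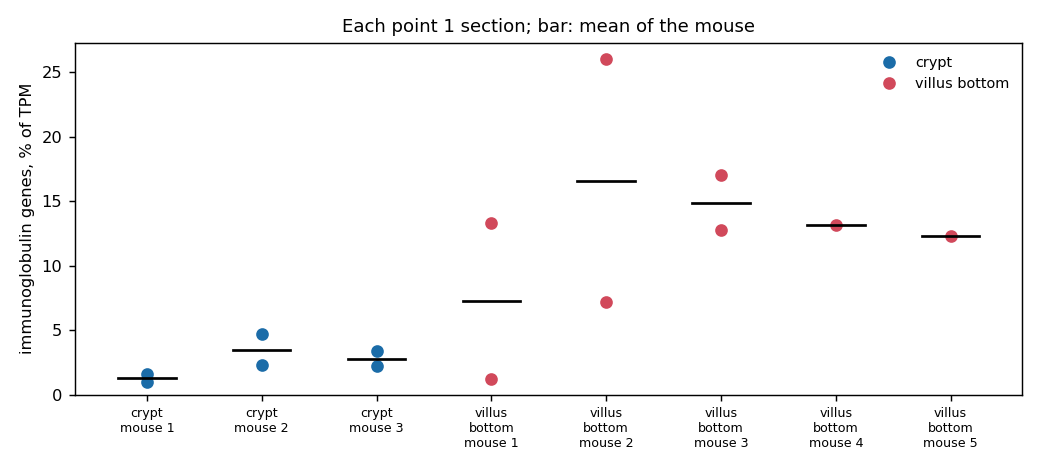
Percent of TPM on all immunoglobulin genes (y axis, from 0) in each of the 14 sections, grouped by zone and mouse on the x axis; points are sections and black bars are mouse means. Mouse means lie between 1.29% and 3.5% in crypt and between 7.27% and 16.6% at the villus bottom, with 1 low section in villus bottom mouse 1.

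Genes of the B cell and plasma cell programme other than the immunoglobulins were higher on average at the villus bottom. All 12 members tested had a log2 difference above 0, with a median of 1.94, where 57.7% of all genes tested were above 0 and the median of all genes was 0.14. With the mouse as a block in 4 zones, 10 of the 12 were above 0 with a median of 1.86. Of the 12, 3 did not overlap between zones (25%, against 1.2% of all genes), and 6 were higher in each of mice 1 to 3 (11.6% of all genes were). The 3 without overlap were *Jchain*, *Xbp1*, the transcription factor of the secretory state of plasma cells, and *Cd79b*, a signalling chain of the B cell receptor. *Xbp1* was at 128, 32.4 and 205 ppm in crypt and at 241, 618, 375, 371 and 261 ppm at the villus bottom (log2 difference 1.88 ± 1.45, SE, or 0.91 without mouse 2). *Xbp1* is also an epithelial gene, with a mean of 145 CPM (UMI counts per 1000000) in the epithelium of the 4 mock mice. *Cd79b* was at 4.72, 1.37 and 10.7 ppm in crypt and at 14.3, 212, 22.3, 93.4 and 93.4 ppm at the villus bottom (log2 difference 3.43 ± 1.37, SE).

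Among the others, *Derl3*, which acts in the degradation of misfolded secretory proteins, had a log2 difference of 2.00. *Tnfrsf17*, the plasma cell survival receptor BCMA, had 2.42 and was at 0 in villus bottom mouse 4. *Ms4a1*, encoding the mature B cell antigen CD20, had 0.61, and its zones overlapped. The summed level of the 12 genes was 1654 to 4596 ppm in crypt and 10943 to 28794 ppm at the villus bottom, mostly *Jchain*.

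Of the immunoglobulin genes, 99 were tested, of which 70 had a difference above 0 and 16 below, with a median log2 difference of 0.84. The rest were at 0 ppm in every crypt and villus bottom mouse. The median crypt level of the 99 was 0 ppm, and genes tested only through a zone in which they were higher lean these counts upward. Without the filter on low values the median of all 246 immunoglobulin genes was 0.11, and that of all genes was 0.15. Of the 99, only *Igkc*, *Igha* and *Iglc2* did not overlap between zones. The variable segments, which plasma cells recombine so that each clone uses its own, made up 84 of the 99. They were sparse, and the most abundant one differed between mice. In villus bottom mouse 1 it was *Igkv1-117* with 4484 ppm, 53.2% of the summed variable segments. In mouse 3 it was *Igkv8-27* with 1050 ppm (32.9%), and in mice 2, 4 and 5 it was *Iglv1*, with 280.5, 317 and 1142 ppm. In crypt the highest were *Igkv10-96*, *Igkv14-130* and *Iglv1* in mice 1, 2 and 3, with 55.8, 74.0 and 96.0 ppm. The summed level of variable segments was 164 to 302 ppm in the crypt mice and 843 to 8432 ppm in the villus bottom mice, without overlap. Variable segments are short and resemble each other, so single segments are uncertain where reads could be split among them.

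Other leukocyte genes gave smaller differences. *Ptprc*, encoding CD45 on all leukocytes, was at 5.76, 11.7 and 20.7 TPM in crypt and at 10.7, 54.9, 52.0, 52.9 and 95.0 TPM at the villus bottom, with only villus bottom mouse 1 inside the crypt range. Of 12 macrophage and dendritic cell genes tested, 11 had a difference above 0 (median log2 0.69), and 10 with the mouse as a block in 4 zones (median 1.45). The median was 0.50 without villus bottom section 2 of mouse 2 and 1.36 without crypt section 2 of mouse 3. *C1qc*, a chain of complement C1q made by tissue macrophages, was at 13.6, 134 and 127 ppm in crypt and at 144, 382, 323, 233 and 224 ppm at the villus bottom, the sole member of the 12 without overlap (8.33%, against 1.2% of all genes). *C1qa* and *C1qb* had log2 differences of 0.78 and 1.38 with overlap. Of 13 T cell and innate lymphoid genes tested, 9 were above 0 (median 0.55). *Cd8a*, the co-receptor of cytotoxic T cells, was the 1 of these 13 without overlap (7.69%, against 1.2% of all genes), at 3.01, 1.26 and 3.48 ppm in crypt and 5.58, 21.1, 28.9, 10.1 and 5.45 ppm at the villus bottom. *Cd3e*, part of the T cell receptor complex, overlapped, with a log2 difference of 1.16.

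Of 19 chemokines and stromal cytokines tested, 14 were above 0 with a median of 0.73 and none was without overlap. The median was 0.19 without villus bottom section 2 of mouse 1, 0.22 without mouse 2 and 0.15 with array weights, where 10 of the 19 were above 0. *Cxcl10*, an interferon-induced chemokine, had the largest difference of these (log2 3.28) but was at 0 in villus bottom mouse 4. *Ccl28*, an epithelial chemokine that attracts IgA plasma cells, differed by 0.36. *Tnfsf13b*, encoding the B cell survival factor BAFF, was at 7.15, 1.02 and 14.8 ppm in crypt and at 16.2, 4.27, 26.5, 0.484 and 34.9 ppm at the villus bottom. Each of mice 1 to 3 had more *Tnfsf13b* at the villus bottom, but the zones overlapped and the log2 difference was 0.73.

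*Madcam1*, the adhesion molecule of mucosal venules that binds gut-homing lymphocytes, was at 0.994, 0 and 7.04 ppm in crypt and at 31.1, 14.0, 16.3, 164 and 7.06 ppm at the villus bottom. Its zones were separated only narrowly, by crypt mouse 3 and villus bottom mouse 5, and the log2 difference was 3.35 ± 1.11 (SE). The level came from a few sections, since 2 of the 8 villus bottom sections were at 0 and 4 lay above all crypt sections. Other blood endothelial genes did not separate the zones: 10 of 13 were above 0 (median 0.52, or 0.26 without villus bottom section 2 of mouse 3), all with overlap, and *Pecam1* differed by -0.12. Of 7 lymphatic endothelial rows tested, 5 were below 0, and *Ccl21a*, the lymphatic chemokine for dendritic and T cells, differed by -1.50 with overlap.

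**Figure D3:**
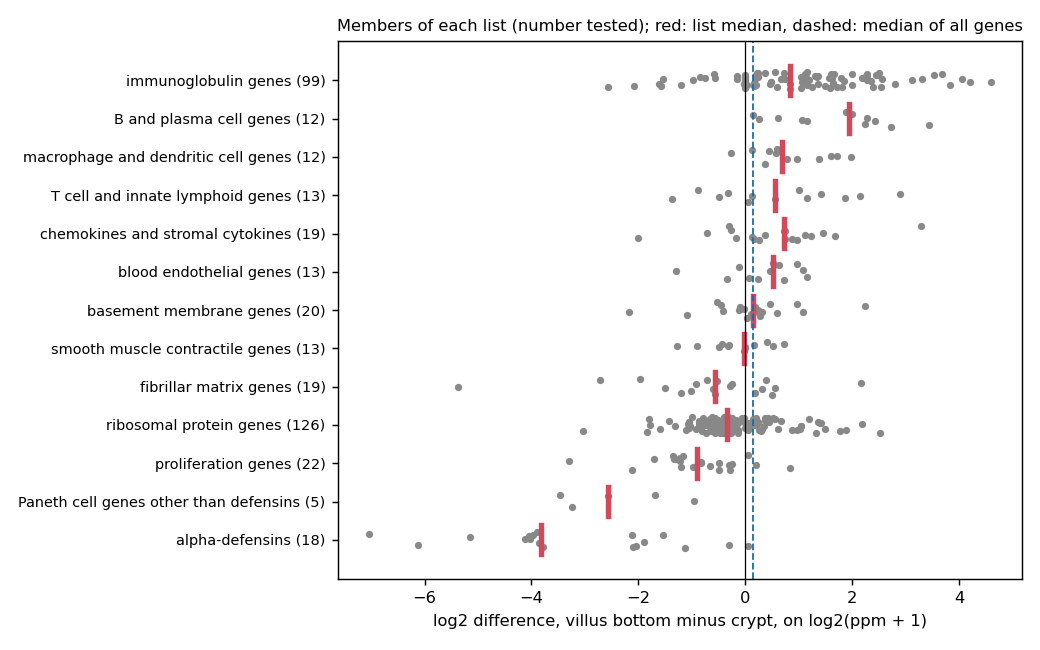
Log2 difference villus bottom minus crypt (x axis) of every tested member of 13 gene lists (y axis, number tested in brackets); grey points are genes, red bars are list medians and the dashed line is the median of all 13537 genes (0.14). Medians run from 1.94 for B and plasma cell genes to -3.82 for alpha-defensins.

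Some single genes of connective tissue were higher in crypt than at the villus bottom, but the gene lists described after them were mixed. *Mgp*, encoding matrix Gla protein, an extracellular inhibitor of calcification (chr6:136872435-136875823, minus strand), was at 179.7, 954 and 1072 ppm in crypt mice 1, 2 and 3. At the villus bottom it was at 49.9, 9.27, 57.0, 0 and 14.7 ppm in mice 1 to 5. All villus bottom mice were below all crypt mice, with a log2 difference of -5.38 ± 2.20 (SE). *Mgp* was at 0 in 4 of 8 villus bottom sections and in none of the crypt sections, where the lowest had 34.1 ppm, so crypt and villus bottom overlapped for single sections. It was not restricted to crypt along the whole axis, with medians of 135 ppm at the villus center and 37.5 ppm at the top. At the top its highest mouse had 1233 ppm, above every crypt mouse. In mock epithelium its mean was 0.127 CPM.

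*Dpt*, encoding the collagen-binding matrix protein dermatopontin, was at 22.5, 212 and 165 ppm in crypt and at 14.5, 2.77, 19.6, 0 and 2.90 ppm at the villus bottom (log2 difference -4.11 ± 1.56, SE). Further up, its highest mouse had 156.5 ppm at the villus center and 169.9 ppm at the top, both within the crypt range. *Clec3b*, encoding the plasminogen-binding protein tetranectin, was at 11.6, 17.9 and 31.4 ppm in crypt and at 4.91, 2.84, 3.73, 0 and 0 ppm at the villus bottom. *Hmcn2*, encoding the extracellular matrix protein hemicentin, was at 12.6, 77.1 and 41.2 ppm in crypt and at 4.11, 8.67, 5.09, 0.946 and 0.101 ppm at the villus bottom. None of these 3 genes overlapped between zones, and each was lower at the villus bottom in mice 1, 2 and 3.

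Of 19 fibrillar matrix genes tested, 13 had a difference below 0 and 6 above, with a median of -0.56, where 42.3% of all genes were below 0. Without section 2 of crypt mouse 3 this median was 0.07, with 11 of the 19 above 0. Of the 19, 1 did not overlap, *Mgp* (5.26%, against 1.17% of all genes). Of 11 genes of crypt-type fibroblasts tested, 6 were above 0 and 5 below with a median of 0.03, and *Dpt*, which had the lowest value of the list, was the 1 without overlap. *Dcn*, encoding the collagen-binding proteoglycan decorin, was at 75.8, 183 and 393 ppm in crypt and at 45.0, 15.8, 143, 29.7 and 3.18 ppm at the villus bottom. Each of mice 1 to 3 had less *Dcn* at the villus bottom, with villus bottom mouse 3 inside the crypt range (log2 difference -2.72 ± 1.27, SE, exact permutation p = 0.0714). *Dcn* was not a crypt trait along the axis: its median was 215 ppm at the villus center, against 183 ppm in crypt and 16.8 ppm at the top. The main fibrillar collagens differed little: *Col1a1*, *Col1a2* and *Col3a1* had log2 differences of -0.29, -0.53 and -0.26, all with overlap. *Col6a2*, a chain of the microfibrillar collagen VI, ran the other way with 2.17 and overlap. Basement membrane genes were split, with 12 of 20 above 0 and a median of 0.15, near that of all genes, and a median of -0.09 when libraries were scaled by the sum of all genes left after removal.

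The contractile genes of smooth muscle showed no common direction by gene, with 9 of 13 below 0 and a median of -0.02. None of the 13 was without overlap, and none was lower in each of mice 1 to 3 (12.3% of all genes were). Their summed level, which the most abundant members weigh most, was 583 to 765 ppm in crypt and 385 to 529 ppm at the villus bottom, without overlap. *Tagln*, encoding the actin-binding protein transgelin, was at 160, 330 and 245 ppm in crypt and at 90.3 to 192 ppm at the villus bottom, where mouse 1 lay within the crypt range.

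**Figure D4:**
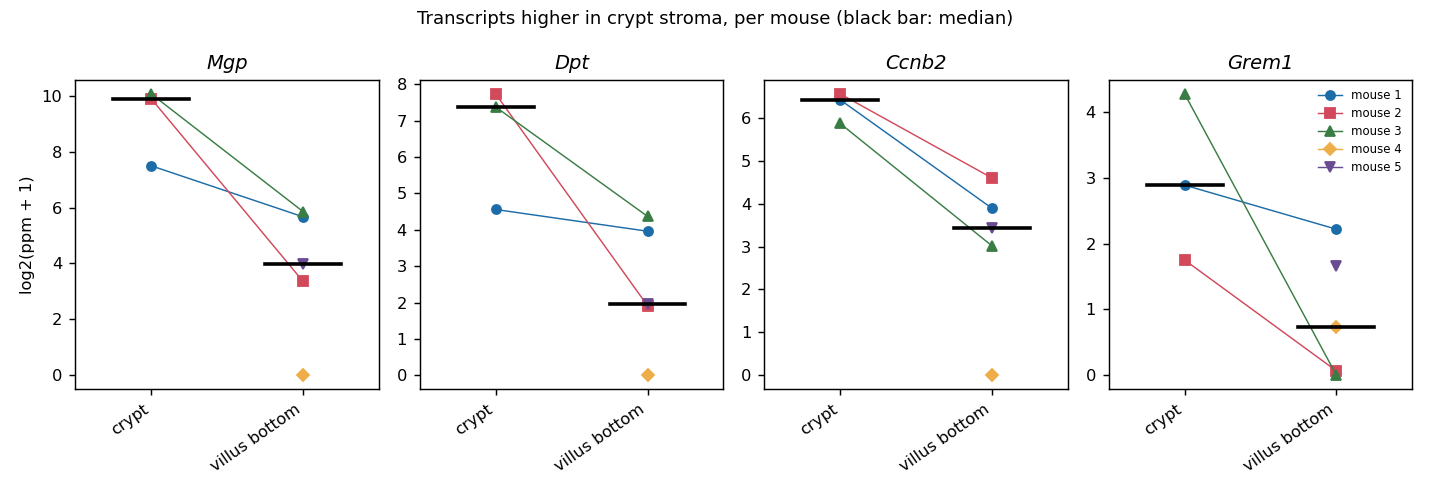
Levels of *Mgp*, *Dpt*, *Ccnb2* and *Grem1* as log2(ppm + 1) on the y axis in crypt (3 mice) and villus bottom (5 mice) on the x axis; markers are mice, lines join the zones of 1 mouse and black bars are medians. The zones do not overlap for *Mgp*, *Dpt* and *Ccnb2*, and they overlap for *Grem1*, where villus bottom mouse 1 (3.66 ppm) lies above crypt mouse 2 (2.37 ppm).

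Proliferation genes were mostly lower at the villus bottom, where 19 of 22 had a difference below 0 and the median was -0.90. The median was -0.48 without crypt section 2 of mouse 2, -1.60 without mouse 2 and -0.39 with the mouse as a block, where 18 of 22 were below 0 in the fit of 4 zones and 16 in that of crypt and villus bottom alone. Without overlap were 2 of 22 (9.09%, against 1.17% of all genes), and both encode cyclins. *Ccnb2*, a B-type cyclin of mitosis (chr9:70407692-70421547, minus strand), was at 84.8, 93.4 and 57.5 ppm in crypt and at 13.8, 23.2, 7.09, 0 and 9.88 ppm at the villus bottom. Each of mice 1 to 3 had less at the villus bottom, with a log2 difference of -3.29 ± 1.25 (SE), or -2.02 without crypt section 1 of mouse 2. *Ccna2*, cyclin A2 of S phase and G2, was at 40.1, 44.2 and 74.9 ppm in crypt and at 30.5, 38.7, 32.5, 3.95 and 15.5 ppm at the villus bottom. *Mcm7*, a subunit of the replicative helicase, was at 29.8, 270.3 and 62.2 ppm in crypt and at 20.1, 30.0, 40.5, 6.33 and 9.94 ppm at the villus bottom. *Mki67*, the proliferation antigen Ki-67, did not go with them: it was at 11.7, 1.47 and 7.04 ppm in crypt and at 4.81, 12.4, 2.47, 0.454 and 28.7 ppm at the villus bottom.

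Promoters of cell cycle genes are known for paired CCAAT boxes, which the factor NF-Y binds, and these sequences are shown because the genes lay together on the crypt side. In the 100 bases before the RefSeq start, CCAAT on either strand was present at least 2 times in 13 of the 20 proliferation genes with a promoter entry (65%), and in 3.83% of all 27025 genes with an entry. The list was chosen as genes of proliferation, so this share describes the list and says nothing about the zones. Of the 5 members with an entry that were lower at the villus bottom in each of mice 1 to 3, *Ccnb2* and *Top2a* had the most matches. Their upstream sequences (GRCm38.p6, 5′ to 3′ on the gene's strand, CCAAT or its reverse complement ATTGG in capitals) lie at chr9:70421555-70421654 on the minus strand and chr11:99024190-99024289 on the minus strand.
Ccnb2: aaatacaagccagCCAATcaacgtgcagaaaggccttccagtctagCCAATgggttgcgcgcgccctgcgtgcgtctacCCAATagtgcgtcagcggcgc
Top2a: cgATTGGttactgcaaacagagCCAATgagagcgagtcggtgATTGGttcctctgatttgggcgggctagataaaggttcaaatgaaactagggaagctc
Each sequence held 3 matches. *Top2a*, encoding the topoisomerase that separates chromosomes, was at 97.0, 42.7 and 34.6 ppm in crypt and at 33.1, 41.4, 31.7, 35.9 and 12.7 ppm at the villus bottom, with overlap.

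Genes of Paneth cells, which are epithelial and lie at the crypt base, were the lists with the lowest medians. Of 22 alpha-defensins, 4 were among the genes removed as highly expressed in epithelium. The other 18 resemble each other closely, so the sum of these 18 is given. It was 25894, 25936 and 181940 ppm in crypt mice 1, 2 and 3, and 21348, 4634, 11819, 37.3 and 47728 ppm at the villus bottom in mice 1 to 5. Crypt mouse 3 was far above the other mice and villus bottom mouse 4 far below, and the zones overlapped through villus bottom mouse 5. Of 18 alpha-defensins tested, 17 had a difference below 0 (median -3.82), 8 were lower in each of mice 1 to 3 (12.3% of all genes were) and none was without overlap. All 5 other Paneth cell genes tested were below 0 as well (median -2.57). With no gene removed, all 22 alpha-defensins and all 7 other Paneth cell genes were below 0 (medians -3.815 and -3.229). *Mmp7*, the protease that activates alpha-defensins in the mouse, was at 83.4, 108 and 332 ppm in crypt and at 610.2, 6.46, 25.8, 0 and 71.6 ppm at the villus bottom. The medians of the 18 and of the 5 genes were carried in part by villus bottom mouse 4, which gave a single section. In it the listed Paneth cell genes left after removal, other than defensins, were at 0. *Lyz1*, a Paneth cell marker, was at 1.13 TPM in it. Without mouse 4 the median was -1.77 for alpha-defensins and -1.41 for the other Paneth cell genes. With the mouse as a block in 4 zones the medians were -0.70, with 3 of 18 above 0, and -1.12, with 1 of 5 above 0. With that block in crypt and villus bottom alone they were -2.30 and -1.55.

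Goblet cell genes depended on the same mouse: all 5 tested were below 0 with a median of -0.19, and without mouse 4 there were 4 above 0 with a median of 0.88. With no gene removed, 3 of 10 goblet cell genes were above 0 with a median of -0.25. Defensin RNA was not limited to crypt, since *Defa30* had a mean of 5816 ppm at the villus center and 23922 ppm at the villus top. Villus top sections were uneven in defensin RNA. *Defa24* was the highest gene in section 2 of mouse 1 (10.9% of TPM) and section 2 of mouse 3 (10.3%), and in no other villus top section. How far epithelial RNA entered the other results was not tested. Of the genes named above, *Ccnb2* was also detected in mock epithelium (33.1 CPM), and *Mgp* and *Dpt* were near 0 there (0.127 and 0.367 CPM). *Igkc* and *Igha* had no entry under these symbols in the mock epithelium counts. Their epithelial level is therefore unknown here, and the removal of epithelial genes could not act on them.

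**Figure D5:**
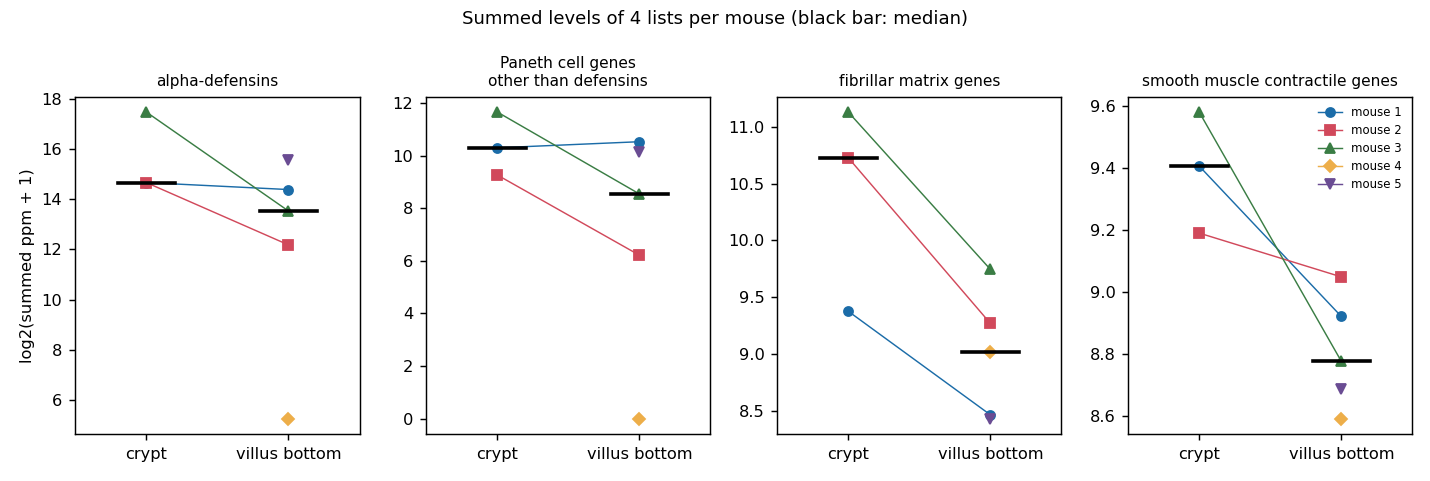
Summed levels of 4 gene lists as log2(summed ppm + 1) on the y axis in crypt (3 mice) and villus bottom (5 mice) on the x axis; markers are mice, lines join the zones of 1 mouse and black bars are medians, and each panel has its own y range. Genes removed as highly expressed in epithelium are not in the sums. Fibrillar matrix sums overlap (664 to 2244 ppm against 344 to 857 ppm) and smooth muscle sums do not. Villus bottom mouse 4 lies far below the others for alpha-defensins (37.3 ppm).

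Ribosomal protein genes had a median difference that turned with the fit. Of 126 tested, 88 had a difference below 0 and the median was -0.34. Without overlap and lower at the villus bottom were 11 (8.73%, against 1.17% of all genes), and none was higher without overlap. *Rpl13a*, of the large subunit, was at 4954, 3939 and 5258 ppm in crypt and at 2956, 2955, 3123, 1255 and 3235 ppm at the villus bottom. *Rpl10a*, also of the large subunit, had the largest difference of the 11 (log2 -1.79), at 1157, 1875 and 1378 ppm in crypt and 961, 420.0, 769.9, 131 and 305 ppm at the villus bottom. Villus bottom mouse 4 had the lowest sum of the list, 71344 ppm, against 128580 to 167840 ppm in the other villus bottom mice and 136900 to 233020 ppm in crypt. Without mouse 4 the median was -0.11. With the mouse as a block, the median was 0.25 in the fit of all 4 zones, with 89 of the 126 above 0, and -0.06 in the fit of crypt and villus bottom alone, with 56 above 0.

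The stromal ligands and receptors for which the crypt-villus axis is known did not separate these neighbouring zones. *Grem1*, the BMP antagonist of crypt fibroblasts, came closest, at 6.41, 2.37 and 18.4 ppm in crypt and at 3.66, 0.0468, 0, 0.661 and 2.17 ppm at the villus bottom. It was lower at the villus bottom in each of mice 1 to 3, with a log2 difference of -2.04 ± 0.99 (SE) and an exact permutation p of 0.0536. *Il18r1*, a receptor chain for interleukin-18, was also lower in each of these mice but was at 64.2 ppm in villus bottom mouse 4 (log2 difference -0.89, or -0.21 without mouse 3). *Lama2*, the laminin alpha-2 chain of stromal basement membranes, was at 2.59, 113 and 9.24 ppm in crypt and at 0.301, 2.23, 0.555, 10.1 and 7.19 ppm at the villus bottom (log2 difference -2.17 ± 1.13, SE). Crypt mouse 2 alone was high for *Lama2*, the zones overlapped, and without section 2 of that mouse in crypt the difference was -0.33.

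*Bmp4*, a BMP ligand, was at 3.59, 28.3 and 40.9 ppm in crypt and at 4.71, 62.5, 42.4, 85.0 and 24.8 ppm at the villus bottom. It was higher at the villus bottom in each of mice 1 to 3, by little in mice 1 and 3, with a log2 difference of 0.86 ± 1.45 (SE) and an exact permutation p of 0.482. Section 1 of crypt mouse 3 was at 0 and section 2 at 81.7 ppm, and the difference was 2.65 without section 2 and 0.50 without mouse 4. *Bmp2*, another BMP ligand, differed by -2.37 with overlap. *Wnt4*, a Wnt ligand, was at 40.6, 243 and 53.6 ppm in crypt and at 30.0, 142, 68.6, 292 and 190 ppm at the villus bottom, a log2 difference of 0.44 that was -0.28 with the mouse as a block. *Egf*, *Lgr5*, *Lama5* and *Pdgfra* had log2 differences of -0.01, -0.08, 0.97 and -0.77, all with overlap and with SEs between 0.98 and 1.54. For *Egf* and *Lgr5*, the sign depended on which mouse was left out, and for *Pdgfra* on section 2 of crypt mouse 3.

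By list, 5 of 14 Wnt and R-spondin ligands were tested, with 3 above 0 (median 0.35), and *Wnt5a*, a non-canonical ligand, differed by -1.31. Of 6 BMP antagonists tested, 3 were above 0 and 3 below. Of 11 telocyte and Hedgehog target genes tested, 6 were above 0 (median 0.42). *Hhip*, a Hedgehog-binding antagonist, was at 0.341, 55.5 and 32.0 ppm in crypt and at 6.95, 23.0, 57.5, 373 and 173 ppm at the villus bottom, a log2 difference of 2.12 with overlap. *Foxf1*, a Hedgehog-responsive transcription factor of gut mesenchyme, differed by -1.39 with overlap. None of these lists had a member without overlap.

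Of the genes without overlap that had at least 20 ppm in the higher zone and the same direction in mice 1, 2 and 3, 70 were higher and 104 lower at the villus bottom, and the 15 with the smallest limma p in each direction are named. *Bbs9*, encoding a subunit of the BBSome of primary cilia, had the smallest p of the higher genes. It was at 1.13, 1.86 and 0 ppm in crypt and at 18.4, 18.5, 32.1, 18.9 and 190 ppm at the villus bottom (log2 difference 4.23 ± 1.06, SE). *Art3*, encoding an ADP-ribosyltransferase family member, was at 12.7, 1.46 and 2.75 ppm in crypt and at 13.4, 48.6, 27.8, 73.2 and 88.7 ppm at the villus bottom. *Ly6e*, a GPI-anchored interferon-inducible protein, was at 60.8, 63.6 and 127 ppm in crypt and at 575, 555, 637, 156 and 388 ppm at the villus bottom. *Lax1*, a membrane adaptor of lymphocyte signalling, was at 0.380, 6.36 and 9.64 ppm in crypt and at 34.7, 39.4, 15.7, 15.4 and 26.3 ppm at the villus bottom. These 4 genes, like *Madcam1* and *Cd79b*, had all 5 villus bottom mice above all crypt mice.

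*Car2*, carbonic anhydrase 2, and *Plin2*, a coat protein of lipid droplets, had log2 differences of 2.14 and 2.70, and both were also measured in mock epithelium, at 34.0 and 71.9 CPM. The difference of *Car2* was 1.25 without mouse 3 and that of *Plin2* was 1.05 without mouse 2. The remaining higher genes were *Glod4*, *AI427809*, *Apol7b*, *Pip4k2b*, *Acsbg1*, *Mindy2* and *2010001K21Rik*, with log2 differences from 1.97 to 4.47. *Acsbg1*, an acyl-CoA synthetase, shows how uneven such genes were, at 1.34, 3.99, 0.928, 107 and 334 ppm in villus bottom mice 1 to 5.

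Besides *Mgp*, *Dpt*, *Clec3b*, *Hmcn2* and *Ccnb2*, the 15 lower genes included *Myb*, a transcription factor of proliferating progenitors. It was at 15.5, 46.3 and 38.7 ppm in crypt and at 7.74, 5.49, 4.70, 0.768 and 13.3 ppm at the villus bottom, and at 69.5 CPM in mock epithelium. *Nkx6-2*, a homeobox factor, was at 63.0, 15.8 and 34.4 ppm in crypt and at 13.4, 4.73, 10.8, 0 and 0 ppm at the villus bottom. *Pbx2*, a homeobox cofactor, was at 55.9, 44.5 and 34.4 ppm in crypt and at 12.7, 10.4, 7.46, 0.763 and 9.50 ppm at the villus bottom. The others were *1810010H24Rik*, *Psmf1*, *Wdr41*, *Uck2*, *Tuft1*, *Eif2b3* and *Ints1*, with log2 differences from -3.41 to -2.36. Several rested on 1 crypt section of mouse 2: without section 1 the difference was -0.59 for *Psmf1*, -0.87 for *Tuft1*, -0.94 for *Uck2* and -0.52 for *Myb*, and without section 2 it was -0.70 for *Ints1*. The smallest limma p of all genes tested was that of *Tnfrsf4*, the co-stimulatory receptor OX40 of activated T cells, which lay just below the minimum of 20 ppm and was named after its values were seen. Its mean was 18.3 ppm in crypt and 0.598 ppm at the villus bottom (log2 difference -3.51 ± 0.76, SE).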

How the data were processed

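LCM libraries were pseudoaligned by the authors with kallisto 0.43.0 to coding transcripts of GRCm38.94, and sleuth 0.30.0 gave the deposited TPM per gene. TPM keep no depth, so counting error is unknown. A strand-specific flag was set although the kit is not stated to mark strand, so overlapping antisense genes cannot be told apart. UMI counts of the mock epithelium (4 mice) were deposited by the authors and were used here for CPM and for removing epithelial genes.

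Genes that together made up 50% of the mock epithelium, other than ribosomal and mitochondrial ones, were removed (379 rows of the LCM table). The rest was rescaled, divided by the sum of genes each under 1% and averaged over the sections of a mouse. The methods state the same rule on another epithelial table and a shorter list of removed genes. Genes with a zone mean above 5 ppm were fitted on log2(ppm + 1) with limma 3.58.1 (R 4.3.3, trend in the prior variance, all 4 zones, mouse not in the model), and p-values were adjusted over all 13537 genes. Single genes also had an exact permutation test over mice. Named genes were those the study names, the 15 per direction with the smallest p among non-overlapping genes with the same direction in mice 1 to 3 and at least 20 ppm in the higher zone, and list members. Members and lists were chosen with earlier results of these data known, and the immunoglobulin list and the check of CCAAT boxes were added after values were seen. Gene lists were only counted. The pipeline was tested on simulated data. Same-mouse libraries are paired by animal, with correlations of their deviations from the zone means of 0.33, -0.056 and 0.175 in mice 1, 2 and 3. Positions are GENCODE vM21 (GRCm38), and promoter sequences are RefSeq's (GRCm38.p6), matched by symbol. Sorted single cells and treated epithelium were not used here.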

Additional observations from a re-analysis of the deposited data

Results flagged for a closer look

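In 61 measures screened over the 5 villus bottom mice, 3 held 1 mouse far from the others. The screen used Dixon's ratio of the gap to the nearest mouse over the range (limit 0.71). For genes and summed lists the ratio was taken on log2(ppm + 1) and not on the ppm printed here. Chance alone marks about 1 group in 20. *Bbs9* had a ratio of 0.766, with mouse 5 at 190 ppm and the other mice at 18.4 to 32.1 ppm. *Pbx2* had a ratio of 0.763, with mouse 4 at 0.763 ppm and the others at 7.46 to 12.7 ppm. The summed level of goblet cell genes had a ratio of 0.799, with mouse 4 at 22.6 ppm and the others at 1284 to 3521 ppm.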

How the results depend on the processing

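Genes with an adjusted limma p under 0.05 numbered 2 without a filter on low values (*Tnfrsf4* and *1700020L24Rik*, both lower at the villus bottom) and 2 with array weights (*Tnfrsf4* and *Bbs9*), and 0 in every other setting. The count at an unadjusted p under 0.05 was 355 without the filter, 90 with a zone mean above 20 ppm, 386 with crypt and villus bottom alone, 921 with array weights, 370 with the mouse as a fixed block and 547 with that block in crypt and villus bottom alone; leaving out a mouse or a section gave 159 to 309. With the 20 ppm filter, 70 higher and 104 lower genes did not overlap, and leaving out a mouse or a section gave 113 to 695 higher and 99 to 916 lower. The lists' medians kept their sign in every setting for immunoglobulin, B and plasma cell, macrophage, chemokine, blood endothelial, alpha-defensin, Paneth cell and proliferation genes, but not their size: that of immunoglobulin genes went from 0.84 to 0.11 without the filter, that of chemokines from 0.73 to 0.154 with array weights and that of alpha-defensins from -3.82 to -0.70 with the mouse as a block in 4 zones. Those of goblet cell, fibrillar matrix, smooth muscle, ribosomal protein and basement membrane genes changed sign in at least 1 setting. Of 45 named genes followed through these settings, 41 kept their sign. *Egf* turned to 0.0858 with 5 ppm added, 0.19 with log means of sections and 0.0058 without immunoglobulins in the scale, and lay between -0.4934 and 0.8388 with a mouse or section left out, *Lgr5* between -0.6589 and 1.153, and *Pdgfra* between -1.454 and 0.4543. *Wnt4* turned to -0.282 with the mouse as a block in 4 zones and -0.2818 in crypt and villus bottom alone. No other gene of these 45 turned under a block. The difference in the share of removed epithelial genes lay between -5.813 and 1.119 percentage points with a mouse left out. The cause of these shifts was not tested. With 3 crypt mice, single sections of 2 villus bottom mice and unknown depth, low genes are uncertain.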
